A study of Rattus norvegicus with 15 samples.

Results

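Mammary tumours of female Sprague-Dawley rats raised on zinc-supplemented chow were compared with tumours of rats raised on adequate chow. The members are the 5 tumours labelled as the supplemented diet and the 5 labelled as the negative control, which were read as the adequate diet, so 10 of the 15 tumours in the study were described here. Pregnant dams, 16 per group, ate chow with 180 mg of zinc per kg (supplemented) or 35 mg per kg (control) from gestation day 10, and their daughters stayed on that chow after weaning on day 21 until day 51. On day 51 every daughter in both groups received 50 mg/kg of DMBA, a carcinogen that induces mammary tumours in rats, by stomach tube, and all ate adequate chow from then on. Tumours were collected at 180 days, so the diets differed only before the carcinogen was given. The remaining 5 tumours, from a deficient diet with 3 mg per kg, entered the statistical model only to estimate the spread. The RNA came from tumours of tubular or papillary form, and the labels leave unsaid how many animals or litters gave the 5 tumours of each group, so the p-values measure only the spread between these tumours, which may in part be technical.

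Zinc is a structural or catalytic part of many proteins, among them zinc finger transcription factors, matrix metalloproteinases and carbonic anhydrases. Cells hold free zinc low by binding it to metallothioneins and moving it with exporters of the Slc30a family and importers of the Slc39a family, and the metal-sensing factor Mtf1 raises metallothionein transcription when zinc is plentiful. Tumours that DMBA induces in the rat mammary gland are largely luminal epithelial growths, many of which still make milk proteins, and they also hold myoepithelial cells, connective tissue, vessels and immune cells.

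A level is the log2 of an array's processed signal minus the 75th percentile of that array, so 0 is the 75th percentile and a step of 1 is a factor of 2. Signals at the 75th percentile ran from 103 to 163 on the supplemented arrays and from 55.9 to 171 on the control arrays, of which control tumour 2 was the dimmest. Between 16214 and 23420 of the 43379 spots stood well above background on these 10 arrays. Every one of the 4 slides held both diets. The luminal keratin gene Krt18 lay at 8.15 ± 0.39 (SD, n = 5) in control and 8.17 ± 0.27 (SD, n = 5) in supplemented tumours, and the epithelial adhesion gene Epcam lay at 4.93 ± 0.36 and 5.01 ± 0.39. Both are defining markers of the labelled tissue, and both were well above background on all 10 arrays. Per-tumour values below are given in the order of tumours 1 to 5 of a diet, which is only a name.

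Early zinc supplementation left no probe past the test across the array. Of 21011 probes tested with limma, 0 were called at an adjusted p under 0.05 (0.00%), and 415 (1.98%) had an unadjusted p under 0.05 where 1051 would be due with no effect. Those 415 split into 174 higher (0.828%) and 241 lower (1.15%) in supplemented tumours. The 5 supplemented tumours all lay above the 5 control tumours for 44 probes (0.209%) and all below them for 30 (0.143%). By sign alone 10247 probes (48.8%) were higher and 10764 (51.2%) lower. With 1 probe per gene, the tested probe with the highest mean level, 8378 named genes were measured, of which 4125 (49.2%) were higher and 4253 (50.8%) lower. The mean correlation between arrays was 0.956 within a diet and 0.958 across diets. Because no gene passed the adjusted test, every difference below is a measured value with its 95% interval from the limma model and not a called change.

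Bright genes gave the narrowest intervals. A probe is called bright here when its mean level lies among the brightest 1 in 3 of the tested probes and it stood well above background on all 10 arrays, which held for 6998 probes and 3588 genes. The median half-width of the 95% interval was 0.43 over bright probes, a factor of 1.35, against 0.51 over all tested probes, a factor of 1.43. Among bright probes 60 (0.857%) were higher and 36 (0.514%) lower at an unadjusted p under 0.05, 19 (0.272%) lay above on every array and 8 (0.114%) below. For 90.9% of bright probes the whole 95% interval lay within 1 log2 unit of 0.

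**Figure D1:**
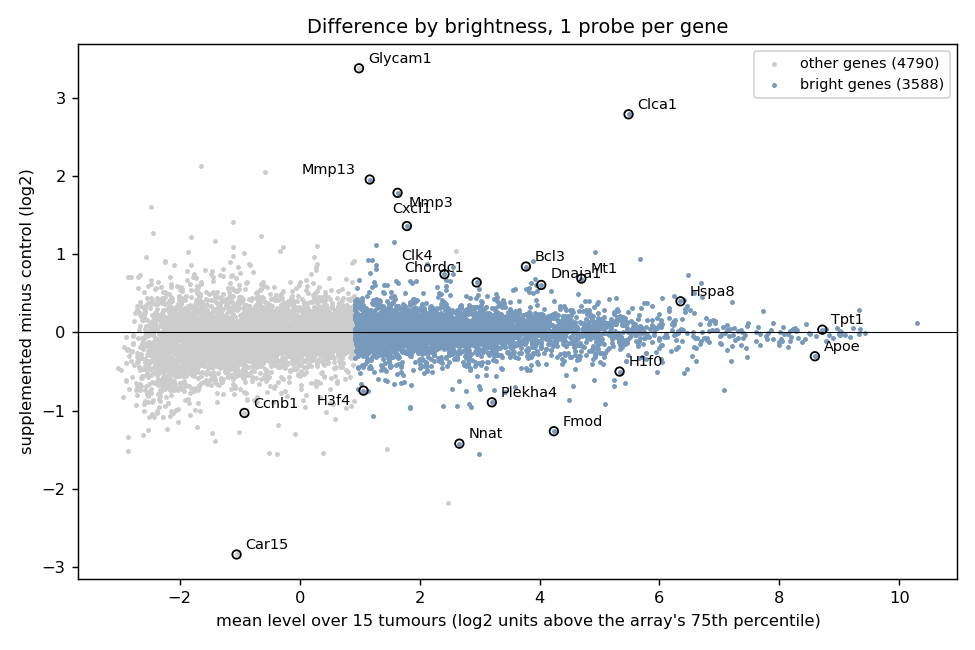
Difference between supplemented and control tumours (vertical axis, log2) against the mean level over 15 tumours (horizontal axis, log2), 1 point per gene, with the 3588 bright genes in blue and named genes circled. The cloud narrows with brightness, and Fmod at -1.26, Mmp13 at 1.96 and Cxcl1 at 1.36 are among the genes outside it. Circled genes further from 0 include Glycam1 at 3.38, Clca1 at 2.79 and Car15 at -2.84. With another background correction 3 of the circled genes near 0.5, Hspa8, Dnaja1 and Chordc1, stood at -0.22, -0.08 and -0.02. The median of bright probes was then -0.44.

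Genes for the machinery that every cell needs had differences close to 0. Of the 20 genes with the highest level 18 encode ribosomal proteins, and all 20 differed by between -0.30 and 0.29. The other 2 were Apoe, a lipid carrier protein, at 8.82 ± 0.33 in control and 8.52 ± 0.37 in supplemented tumours, and Tpt1, the translationally controlled tumour protein, at 8.62 ± 0.32 and 8.66 ± 0.15. Of 75 cytosolic ribosomal protein genes 30 were higher and 45 lower, with a median difference of -0.03 and 0 at an unadjusted p under 0.05. The 54 genes of the mitochondrial respiratory chain had a median of 0.03 (35 higher, 19 lower), and the 30 proteasome genes also had 0.03 (19 higher, 11 lower). The median over all 8378 genes was -0.0042. With normexp background correction, a model-based subtraction that moved the median of bright probes to -0.44, the 3 lists stood at -0.68, -0.59 and -0.55.

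Fibromodulin had the smallest p of the bright genes that were lower. Fmod encodes a collagen-binding proteoglycan of connective tissue that shapes collagen fibrils. Fmod read 4.83, 4.74, 4.18, 5.50 and 4.81 in the control tumours and 4.01, 3.39, 3.91, 3.50 and 2.95 in the supplemented tumours. All 5 supplemented tumours lay below all 5 control tumours, and the lowest control tumour, number 3, was close to the highest supplemented tumour, number 1. Fmod was 2.40-fold lower, a log2 difference of -1.26 (95% interval -2.03 to -0.50). With normexp background correction Fmod stood at -1.78, or at -1.35 relative to the shift of bright probes. Within the 4 slides its difference ran from -2.21 to -0.68, below 0 on each. The 5 deficient tumours averaged 4.35 ± 0.87.

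Other bright genes with small p were lower by less or with more spread. Nnat, the imprinted neuronatin gene, read 2.35, 3.39, 3.75, 3.99 and 3.01 in control and 1.83, 1.65, 1.08, 3.53 and 1.29 in supplemented tumours. Supplemented tumour 4 reached the control range while the other 4 lay below every control tumour, and the difference was -1.42 (95% interval -2.65 to -0.20). Plekha4, a pleckstrin homology domain protein, differed by -0.89, S100a1, a calcium-binding protein, by -0.63, and Pdgfa, a growth factor for fibroblasts, by -0.62. Pcbp4, an RNA-binding protein, differed by -0.49, Chtf18, part of an alternative clamp loader in DNA replication, by -0.60, and Mea1 by -0.36. The groups overlapped for each of these 6 genes. With normexp, relative to the shift of bright probes, they stood at -0.87, -0.40, -0.59, -0.24, -0.40 and -0.28, and Nnat at -1.23.

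**Figure D2:**
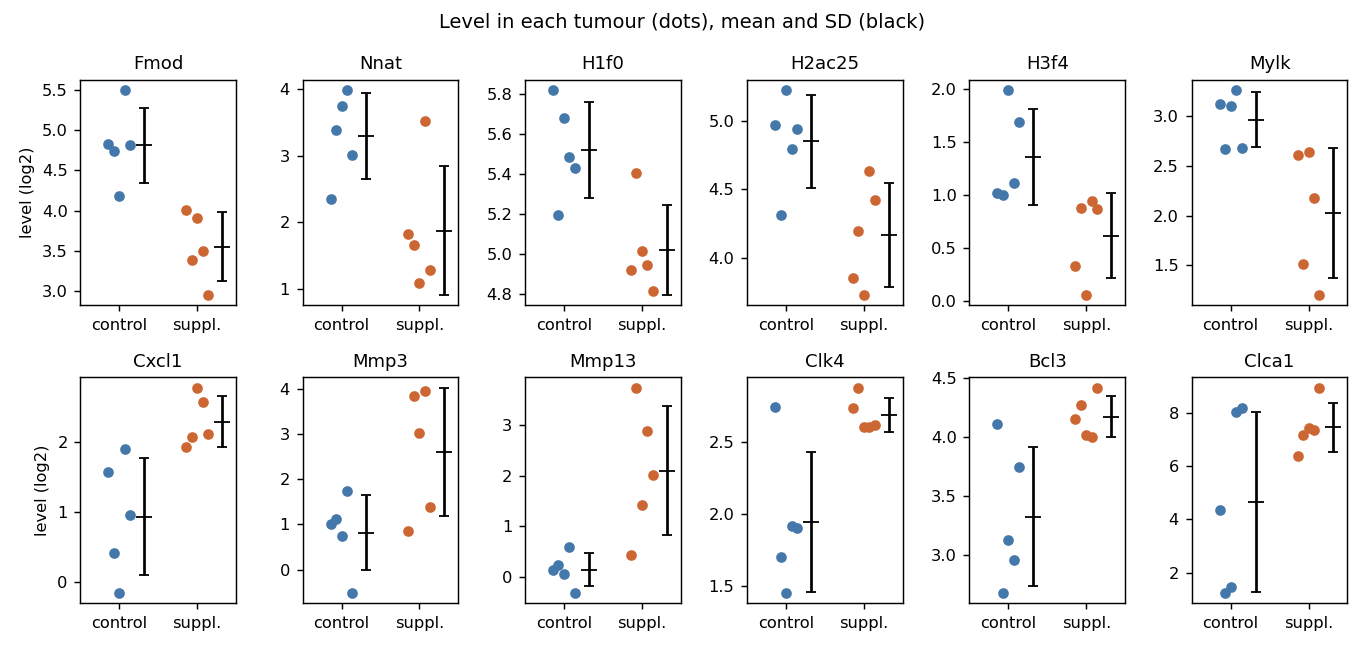
Level of 12 genes (vertical axes, log2 above the 75th percentile of the array) in the 5 control (blue) and 5 supplemented (orange) tumours, 1 dot per tumour with the mean and SD in black. The groups separate for Fmod, H3f4, Mylk and Cxcl1 and overlap for the other 8 genes; Clca1 spans 1.26 to 8.17 among control tumours alone.

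Cxcl1 was the bright chemokine gene that separated the groups. It encodes a ligand that draws neutrophils through the receptor Cxcr2. Cxcl1 read 1.57, 0.41, -0.16, 1.90 and 0.95 in control and 1.94, 2.07, 2.78, 2.59 and 2.11 in supplemented tumours. Every supplemented tumour lay above every control tumour, by a narrow margin between control tumour 4 and supplemented tumour 1. The gene was 2.57-fold higher, with a log2 difference of 1.36 (95% interval 0.51 to 2.22). That difference was above 0 on all 4 slides, from 0.37 to 2.74. With normexp background correction it was 0.56, or 0.99 relative to the shift of bright probes. Among the 19 tested genes for chemokines and inflammatory cytokines 9 were higher and 10 lower with a median of -0.04 that took both signs under alternative processing. Its close relative Cxcl2 differed by 0.85 with overlapping groups. Of 3 tested neutrophil markers 1 was higher and 2 lower (median -0.21, or 0.15 with normexp background correction), and their mean level ran from 0.35 to 1.58 in control and from 0.08 to 2.29 in supplemented tumours. The deficient tumours averaged 2.13 ± 0.81 for Cxcl1.

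The collagen- and matrix-cleaving proteases Mmp3 (stromelysin 1) and Mmp13 (collagenase 3), both zinc enzymes, were higher in most supplemented tumours. Mmp3 read 1.00, 1.11, 0.74, 1.74 and -0.51 in control and 0.85, 3.84, 3.01, 3.94 and 1.39 in supplemented tumours. Supplemented tumours 2, 3 and 4 lay above every control tumour and tumours 1 and 5 within the control range, with a difference of 1.79 (95% interval 0.49 to 3.08). Mmp13 read 0.14, 0.24, 0.05, 0.59 and -0.31 in control and 0.43, 3.74, 1.42, 2.89 and 2.02 in supplemented tumours. All supplemented tumours but number 1 lay above the control range, and the difference was 1.96 (95% interval 0.34 to 3.58). Over the 17 tested matrix proteases and inhibitors 9 were higher and 8 lower with a median of 0.05, so the list as a whole did not share this direction. With normexp background correction Mmp3 stood at 0.92 and Mmp13 at 1.14, or at 1.36 and 1.58 relative to the shift of bright probes. Mmp7, the epithelial matrilysin, differed by 1.03 (95% interval -0.03 to 2.10), or by 0.41 with normexp and 0.85 relative to that shift. The inhibitor genes Timp1 and Timp2 differed by -0.02 and -0.34.

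Further bright genes were higher with small p. Clk4, a kinase that phosphorylates SR splicing factors, read 2.75, 1.70, 1.45, 1.91 and 1.90 in control and 2.74, 2.88, 2.60, 2.61 and 2.62 in supplemented tumours. Control tumour 1 sat among the supplemented tumours and the other 4 control tumours lay below them all, giving a difference of 0.75 (95% interval 0.29 to 1.20). Of 14 tested Clk and SR splicing factor genes 11 were higher and 3 lower, with a median of 0.10 that was -0.32 with normexp background correction, or 0.11 relative to the shift of bright probes. Bcl3, a nuclear partner of NF-kappaB, differed by 0.84 (95% interval 0.21 to 1.48), with control tumour 1 again in the supplemented range. Phlda1 differed by 0.75, Atp6v1b2, a subunit of the proton pump that acidifies lysosomes, by 0.59, Aplf, a DNA break repair factor, by 0.57 and Grpel2, a mitochondrial co-chaperone, by 0.40. The groups overlapped for all of these genes. With normexp background correction Clk4 stood at 0.20, Bcl3 at 0.15, Phlda1 at 0.08, Atp6v1b2 at 0.05, Aplf at 0.29 and Grpel2 at 0.02. Relative to the shift of bright probes they stood at 0.64, 0.58, 0.51, 0.48, 0.73 and 0.46. In the 5 deficient tumours Clk4 averaged 2.61 ± 0.28.

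Cytosolic chaperones held 3 of the 8 bright genes that lay above control on every array. Those 8 were found among 3588 bright genes, and 17 of all 8378 genes (0.203%) lay above control in this way. Besides the chaperones, the 8 held Cxcl1, Hdgfl3, Tomm70, Prpf3 and Dph5. Unadjusted limma p-values of Hdgfl3, Tomm70, Prpf3 and Dph5 ran from 0.070 to 0.20. Chaperones of the heat shock family bind unfolded proteins, and the factor Hsf1 drives many of their genes through heat shock elements, which pair GAA and TTC blocks. Stretches at the starts of the 4 chaperone genes with the smallest p are shown to let the reader see these blocks, with the capitals marking every GAANNTTC or TTCNNGAA. The sequences are from RefSeq (GRCr8), and the stretches of Hspa8 and Hsph1 end at the base before the gene start while those of Dnaja1 and Chordc1 begin at or just after it.
Hspa8 (chr8:50080444-50080513, plus strand): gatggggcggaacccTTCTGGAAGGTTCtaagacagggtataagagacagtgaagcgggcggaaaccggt
Hsph1 (chr12:10427318-10427367, plus strand): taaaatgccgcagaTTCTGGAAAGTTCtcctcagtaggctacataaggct
Dnaja1 (chr5:60638404-60638433, plus strand): ggccgggcgGAACTTTCCAGAAcgctcggt
Chordc1 (chr8:23650827-23650856, plus strand): accgGAACGTTCGGGAAGATTCCTGAAgca

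The constitutive chaperone Hspa8 read 6.20, 5.92, 6.40, 6.19 and 6.31 in control and 6.54, 6.45, 6.55, 6.78 and 6.69 in supplemented tumours. Its 5 supplemented values all lay above the highest control value, with a difference of 0.40 (95% interval 0.10 to 0.70), a factor of 1.32. Dnaja1, a J-domain partner of Hspa8, read 4.20, 3.50, 4.00, 4.00 and 3.35 in control and 4.32, 4.45, 4.26, 4.52 and 4.54 in supplemented tumours. The supplemented values were tight and all above control, and the difference was 0.61 (95% interval 0.19 to 1.02), a factor of 1.53. Chordc1, a zinc-binding co-chaperone of Hsp90, read 2.94, 2.40, 3.04, 3.09 and 2.20 in control and 3.21, 3.36, 3.26, 3.55 and 3.49 in supplemented tumours, again without overlap. It differed by 0.64 (95% interval 0.20 to 1.08), a factor of 1.56.

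Hsph1, the Hsp110 exchange factor named here after its values were seen, read -0.69, -1.42, -0.66, -0.13 and -0.77 in control and -0.10, -0.46, -0.26, 0.16 and 0.26 in supplemented tumours. Control tumour 4 lay inside the supplemented range, and the difference was 0.65 (95% interval 0.16 to 1.15). The heat shock list of 24 tested genes held cytosolic chaperones and also the mitochondrial Hspd1, Hspe1 and Hspa9. In it 19 genes were higher and 5 lower, and 4 had an unadjusted p under 0.05 in the higher direction (against 0.776% of all genes). Of the 24 genes 3 lay above control on every array (0.203% of all genes). Both counts include Hspa8, Dnaja1 and Chordc1, already named above for their small p, so they are not separate support. The median difference of the list was 0.18, against -0.0042 over all genes. The 5 lower genes included the abundant Hsp90ab1 at -0.15, whose probes disagreed in sign, and the small heat shock genes Hspb1 at -0.25 and Hspb8 at -0.36, while Hsp90aa1 differed by 0.29, or by -0.46 with normexp background correction. In deficient tumours Hspa8 averaged 6.25 ± 0.16, Dnaja1 3.86 ± 0.32 and Chordc1 2.74 ± 0.33.

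The mean level of the heat shock list ran from 2.16 to 2.49 in control and from 2.38 to 2.81 in supplemented tumours, lowest in control tumour 2 and highest in supplemented tumour 4. Its within-slide difference was above 0 on all 4 slides, from 0.09 to 0.32. With normexp background correction Hspa8 stood at -0.22, Dnaja1 at -0.08 and Chordc1 at -0.02. Relative to the shift of bright probes they stood at 0.22, 0.36 and 0.41, and the list at 0.21. Only 15 of the 24 tested genes of the list were bright, and the median over all tested probes was 0.04 with that correction. A heat shock element core lay within the 300-base promoter window of 15 of the 20 tested members with a RefSeq promoter (75%), against 15.9% of all 33469 promoters and 11.8% of 6885 promoters of tested genes. The 15 members with the core had a median difference of 0.26 and the 5 without it 0.21.

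Genes of the unfolded protein response, which raises chaperones of the endoplasmic reticulum when secreted proteins fold poorly, leaned the same way by small amounts. Of 17 tested genes 15 were higher and 2 lower, with a median of 0.22. Dnajb9, a J-domain partner of the chaperone Hspa5, read -0.82, -0.90, -0.93, -0.56 and -1.01 in control and -0.42, -0.43, -0.50, -0.08 and -0.62 in supplemented tumours. It was the 1 member with an unadjusted p under 0.05, with a difference of 0.43 (95% interval 0.12 to 0.75) and overlap through control tumour 4. Dnajc3 differed by 0.50 (95% interval -0.03 to 1.03), Hyou1, whose probes disagreed in sign, by 0.35 and Hspa5 by 0.16 (95% interval -0.33 to 0.64). With normexp background correction these 3 stood at -0.02, -0.19 and -0.43. The list median went to 0.07 without supplemented tumour 4, to 0.07 with array weights and to 0.12 without control tumour 2, and with normexp correction it was -0.38, which is 0.06 relative to the shift of bright probes. The heat shock element core was found in 0 of the 14 members with a promoter.

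**Figure D3:**
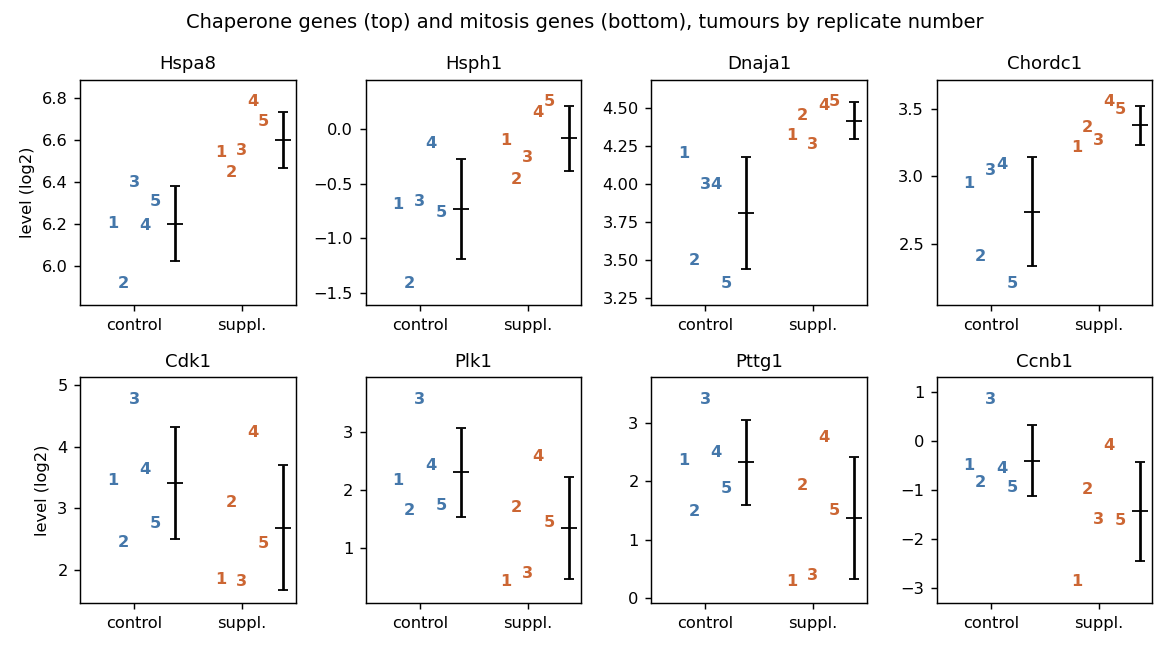
Level (vertical axes, log2) of 4 chaperone genes (top) and 4 mitosis genes (bottom) in control (blue) and supplemented (orange) tumours, each number being the tumour of that replicate number, with mean and SD in black. The chaperone groups separate for Hspa8, Dnaja1 and Chordc1. With normexp background correction, where the median of bright probes was -0.44, these 3 stood between -0.22 and -0.02. The mitosis groups overlap, and control tumour 3 is highest in each mitosis panel.

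Most histone genes tested were lower. Histones package DNA, and most core histone genes are copied from clusters during DNA replication, while H1f0 encodes a linker histone typical of resting cells. H1f0 read 5.82, 5.20, 5.68, 5.49 and 5.43 in control and 4.92, 5.41, 5.02, 4.95 and 4.82 in supplemented tumours. Control tumour 2 lay below supplemented tumour 2 and the other values separated, with a difference of -0.50 (95% interval -0.83 to -0.17). The H2A gene H2ac25 read 4.97, 4.32, 5.23, 4.79 and 4.94 in control and 3.85, 4.20, 3.73, 4.64 and 4.42 in supplemented tumours. It differed by -0.68 (95% interval -1.17 to -0.19), and supplemented tumours 4 and 5 passed control tumour 2. H3f4, a histone H3 gene, read 1.01, 0.99, 1.99, 1.11 and 1.68 in control and 0.32, 0.87, 0.05, 0.94 and 0.87 in supplemented tumours. Its groups did not overlap, narrowly, and it differed by -0.74 (95% interval -1.32 to -0.17).

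A further H2A gene, Hist1h2af, differed by -0.60. All 23 tested histone genes, gathered after these values were seen, had a median of -0.41, with 21 lower (against 50.8% of all genes) and 2 higher. Of them 6 had an unadjusted p under 0.05 in the lower direction (against 1.12% of all genes). Those 6 include H1f0, H2ac25, H3f4 and Hist1h2af, already named above for their small p, so their count is not separate support. Histone copies are nearly identical in sequence, so these probes may read one another's transcripts, and their signs need not be separate observations. In the list of 10 linker and variant histones 8 were lower and 2 higher (median -0.39), with H1f5 at -0.92 (95% interval -1.88 to 0.04) and the replication-independent H2az1 and H3f3b at -0.01 and 0.04. Within slides the list mean differed by between -0.83 and 0.15, with slide 2 above 0, where H1f0 stood at 0.02 and H1f5 at 0.07. The list median was -0.24 without supplemented tumour 1, -0.15 with normexp correction and quantile normalization and -0.17 in the authors' deposited values.

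Genes of G2 and mitosis leaned lower as a group. All 25 of 25 tested genes were lower (against 50.8% of all genes), with a median of -0.70, or -0.64 with Fam83d at its bound, and differences from -1.03 to -0.16 among the other 24. The 25 genes were read in the same tumours and may move together within a tumour, so their signs are not separate observations. The list means of the 2 diets overlapped. Of the 25 genes 2 had an unadjusted p under 0.05 in the lower direction (against 1.12% of all genes), Ccnb1 and Fam83d, and 0 separated the groups. Ccnb1, the cyclin that drives entry into mitosis with Cdk1, read -0.51, -0.85, 0.85, -0.56 and -0.96 in control and -2.86, -0.99, -1.61, -0.10 and -1.62 in supplemented tumours. Control tumour 3 was highest and supplemented tumour 1 lowest, and supplemented tumour 4 lay within the control range. The difference was -1.03 (95% interval -1.96 to -0.10), and -0.67 without supplemented tumour 1. Fam83d, a spindle protein, was well above background in 3 of 5 control and 0 of 5 supplemented tumours, so its fold is a bound of at least 1.05-fold lower, and it stood at 0.18 with normexp background correction.

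Plk1, a kinase of the spindle and centrosome, read 2.16, 1.64, 3.56, 2.42 and 1.73 in control and 0.43, 1.71, 0.55, 2.57 and 1.44 in supplemented tumours. Supplemented tumours 1 and 3 lay far below control while tumours 2 and 4 lay inside its range, and the difference was -0.96 (95% interval -1.94 to 0.01). Pttg1, the securin that holds sister chromatids together, differed by -0.95 and Cdk1 by -0.72 (95% interval -1.92 to 0.47). As a list, the mean level ran from -0.66 to 0.86 in control and from -1.58 to 0.27 in supplemented tumours. The lowest were supplemented tumours 1 and 3 and the highest was control tumour 3. The tumours highest in each diet, control 3 and supplemented 4, shared a slide. The within-slide difference was below 0 on all 4 slides, from -1.48 to -0.27. The median was -0.28 in the authors' deposited values, -0.25 with normexp and quantile normalization and -1 with array weights. With normexp alone the list median was -0.24, and 7 of the 25 genes were higher. Under that setting the median was 0.04 over all tested probes and -0.44 over bright probes, and 3 of the 25 genes were bright. Relative to the shift of bright probes the list median was 0.20. The 22 tested genes of S phase had a median of -0.16 (4 higher, 18 lower), with 0 at an unadjusted p under 0.05. Their median was -0.04 without control tumour 3 or without supplemented tumour 3 and -0.06 with slide as a fixed block.

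Promoters of mitosis genes are known for CCAAT boxes and for the cell cycle homology region (CHR) with the core TTTGAA or TTTAAA. The upstream stretches of 4 members are shown because 16 of the 20 members with a RefSeq promoter (80.0%) held both, on either strand, against 11.3% of all promoters and 7.45% of the promoters of tested genes. Each ends at the base before the gene start, and the capitals mark each CCAAT and each CHR core or their reverse complement.
Ccnb1 (chr2:33655226-33655315, minus strand): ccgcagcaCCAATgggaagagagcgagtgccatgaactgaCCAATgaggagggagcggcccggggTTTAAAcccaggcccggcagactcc
Plk1 (chr1:186147538-186147657, plus strand): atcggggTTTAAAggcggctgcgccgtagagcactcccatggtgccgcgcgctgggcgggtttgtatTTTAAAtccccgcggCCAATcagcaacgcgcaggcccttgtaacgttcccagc
Pttg1 (chr10:28406327-28406426, minus strand): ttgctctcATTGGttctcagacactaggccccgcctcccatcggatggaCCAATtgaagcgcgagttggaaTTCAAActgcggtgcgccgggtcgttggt
Cdk1 (chr20:19265203-19265292, plus strand): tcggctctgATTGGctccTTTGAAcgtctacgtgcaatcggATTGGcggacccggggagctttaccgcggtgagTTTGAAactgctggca

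The 16 members with both motifs had a median difference of -0.72 and the 4 without both -0.22. A CHR core alone was present in 20 of 20 members (100%) and in 28.3% of all promoters, and a CCAAT box in 16 of 20 and 37.5%. These are counts of letters in a fixed window and were not tested.

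**Figure D4:**
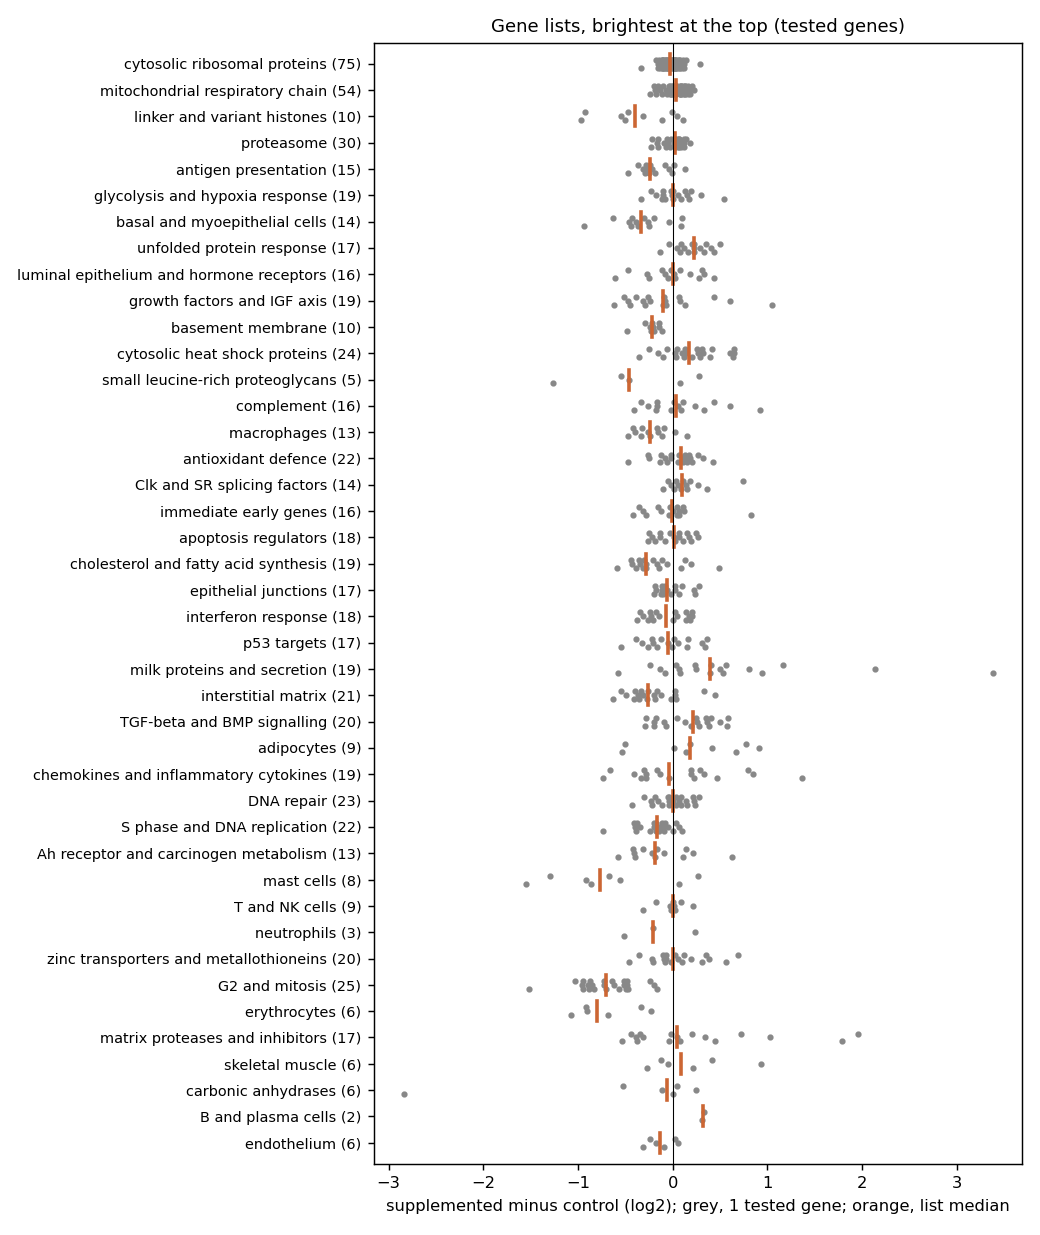
Differences between supplemented and control tumours (horizontal axis, log2) for the tested genes (grey dots) of 42 gene lists, ordered by median level with the brightest at the top and the number of tested genes in brackets, with list medians in orange. The G2 and mitosis, basement membrane and erythrocyte lists lie wholly below 0, and heat shock and unfolded protein response genes lie mostly above 0. With normexp background correction the heat shock and unfolded protein response medians were -0.23 and -0.38, where that of bright probes was -0.44.

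Lists for the myoepithelial layer and for connective tissue had medians below 0, which did not hold on every slide. Fewer cells of a type and less RNA per cell cannot be told apart in tumour RNA. Of 14 tested basal and myoepithelial genes 12 were lower and 2 higher, with a median of -0.33. Mylk, the kinase that lets smooth muscle and myoepithelial cells contract, read 3.12, 2.67, 3.10, 3.27 and 2.68 in control and 2.61, 1.51, 2.65, 2.17 and 1.20 in supplemented tumours. Its groups did not overlap, by a small margin, and it differed by -0.94 (95% interval -1.88 to 0.00). The basal keratin genes Krt14 and Krt5 and the basal transcription factor gene Tp63 differed by -0.38, -0.26 and -0.25, each with overlapping groups and an interval across 0. Leaving out 1 tumour moved each by over 1.5 times, for example Krt5 to -0.03 without supplemented tumour 2, Tp63 to -0.12 without supplemented tumour 5 and Krt14 to -0.20 without control tumour 4. The list mean was lowest in supplemented tumour 2 (1.66) and the list median was -0.18 without it. Within slides the list mean differed by between -0.56 and 0.32, with slide 3 above 0.

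All 10 tested basement membrane genes were lower, with a median of -0.21 and differences from -0.48 to -0.12, and 0 had an unadjusted p under 0.05. The list mean was above 0 on slide 3 (0.07) and below it on the others. The median was -0.13 without supplemented tumour 1 and -0.14 without control tumour 4. In the interstitial matrix 16 of 21 tested genes were lower (median -0.27), among them the fibrillar collagen gene Col1a1 at -0.41 (95% interval -1.62 to 0.81) or 0.06 without supplemented tumour 2, and the median went to -0.00 without supplemented tumour 2 and to -0.02 without control tumour 4. Of 5 tested small leucine-rich proteoglycans, the family of Fmod, 3 were lower and 2 higher. Bgn (biglycan) differed by -0.54 (95% interval -1.32 to 0.24) and Dcn (decorin) by 0.07, and the list median was -0.46, or -0.11 without supplemented tumour 2. On slide 1 the matrix list mean differed by 0.48 and that of the proteoglycans by 1.01, where Col1a1 stood at 1.18 and Dcn at 2.36.

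Immune and blood markers varied with single tumours. Of 15 tested antigen presentation genes 13 were lower (median -0.24), with Cd74, the invariant chain of class II molecules, at 5.61 ± 0.92 in control and 5.31 ± 1.04 in supplemented tumours. Their list median was -0.07 without supplemented tumour 3. Of 13 macrophage genes 11 were lower (median -0.24), and the median was 0.02 without control tumour 5 and -0.04 without supplemented tumour 4. Mast cell markers had a median of -0.77 (2 higher, 6 lower of 8) and turned to 0.06 without supplemented tumour 4. In that tumour the mast cell protease gene Cma1 read -0.52, where the other 9 tumours lay between 2.04 and 4.64. All 6 tested erythrocyte genes were lower (median -0.80, or -0.51 with Alas2, at background in all 5 supplemented tumours, set to 0), among them the globin genes Hbb-b1 at -0.68 (95% interval -1.70 to 0.33) and Hba-a3 at -0.92 (95% interval -2.32 to 0.49). Their median was -0.48 without control tumour 5, -1.21 without control tumour 3 and -0.11 with normexp correction. The 9 T and NK cell genes had a median of 0.01, and 2 tested B and plasma cell genes were at 0.31 and 0.34.

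**Figure D5:**
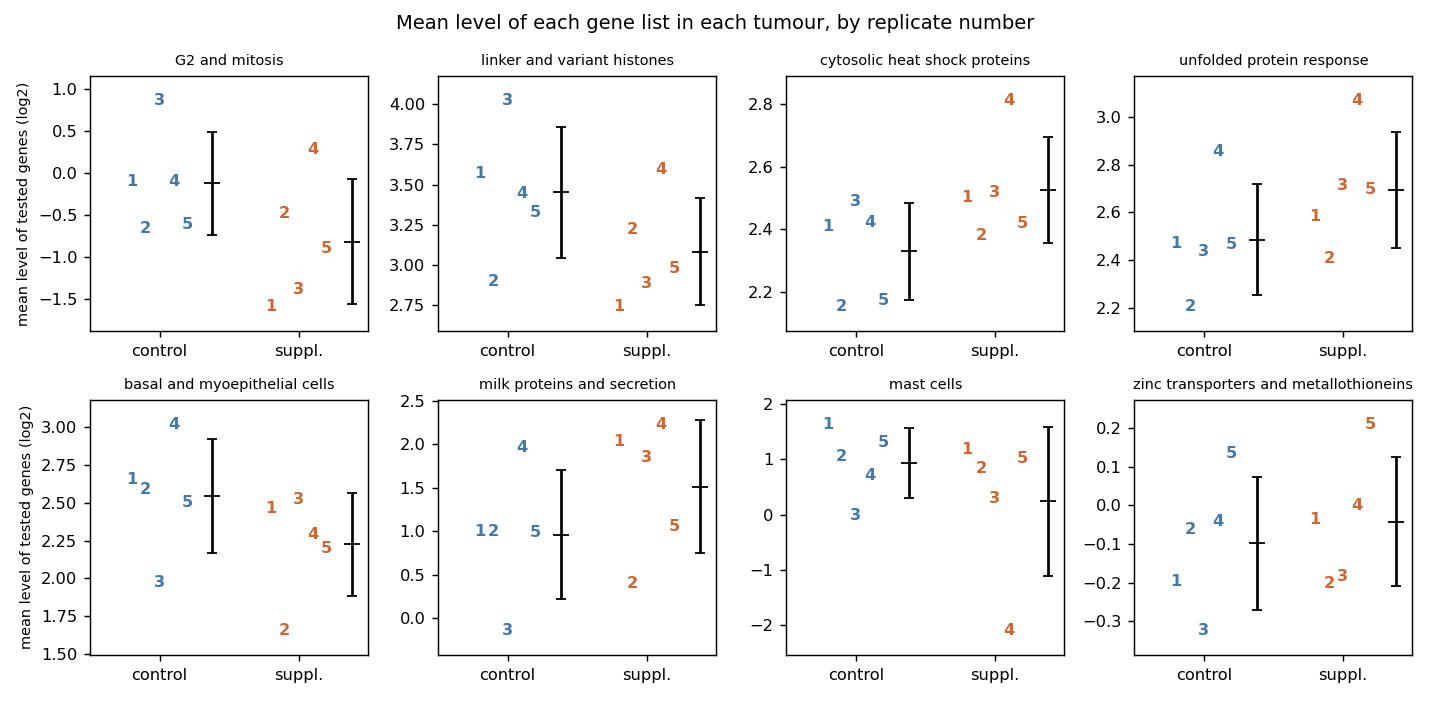
Mean level of the tested genes (vertical axes, log2) of 8 lists in each control (blue) and supplemented (orange) tumour, shown by replicate number, with mean and SD in black. The groups overlap in all 8 panels; control tumour 3 stands highest for mitosis, and supplemented tumour 4 stands highest for the heat shock and unfolded protein response lists and lowest for mast cells at -2.09. With normexp background correction, where the median of bright probes was -0.44, the medians of the heat shock and unfolded protein response lists were below 0.

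Luminal and milk protein genes were compared next. Luminal and hormone receptor genes were even (8 higher, 8 lower of 16, median 0.00), with the progesterone receptor gene Pgr at 0.49 ± 0.31 in control and 0.76 ± 0.42 in supplemented tumours and Erbb2, a growth factor receptor gene, at 1.45 ± 0.54 and 1.63 ± 0.25, a difference that was -0.18 with normexp background correction. Probes for Esr1, the oestrogen receptor, and Mki67, a proliferation marker, were not among those tested. Of 19 milk and secretion genes 15 were higher (median 0.39), but the median was 0.07 without control tumour 3 and 0.05 without supplemented tumour 4. Glycam1, a milk mucin, read -0.61, -3.31, -2.31, 1.73 and -0.43 in control and 5.22, -1.54, 5.41, 0.57 and 2.34 in supplemented tumours. Supplemented tumours 1 and 3 stood far above the rest, and the difference of 3.38 had a 95% interval from -0.37 to 7.14. With normexp background correction the Glycam1 difference was 1.95. The casein gene Csn1s1 read 5.89, 4.43, 2.04, 7.68 and 5.21 in control and 7.53, 2.92, 6.41, 7.48 and 5.63 in supplemented tumours, with full overlap and a difference of 0.94 (95% interval -1.12 to 3.00). That difference was 0.19 without control tumour 3 and 1.71 without supplemented tumour 2.

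The 5 bright genes with the largest SD over the 10 tumours were also compared. Clca1, a secreted regulator of chloride channels, read 4.36, 1.26, 1.46, 8.04 and 8.17 in control and 6.39, 7.16, 7.42, 7.34 and 8.94 in supplemented tumours. Control tumours fell into a low pair, number 2 and number 3, a high pair, number 4 and number 5, and number 1 between them, while supplemented tumours were all high. The difference was 2.79 (95% interval 0.08 to 5.51) with overlapping groups. Igf2, the imprinted insulin-like growth factor gene, averaged 2.94 ± 1.88 in control and 3.01 ± 2.39 in supplemented tumours, Fcgbpl1 1.91 ± 1.78 and 1.60 ± 2.00, and the keratin gene Krt6c 3.58 ± 1.36 and 3.02 ± 2.23. Csn1s1, above, was the other of the 5.

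Differences of genes that handle zinc lay within the spread between tumours. Of 20 tested zinc transporter and metallothionein genes 10 were higher and 10 lower, with a median of 0.00 and 0 at an unadjusted p under 0.05. The metallothionein genes were the brightest of them. Mt1 read 4.32, 2.80, 3.11, 4.65 and 6.33 in control and 4.30, 4.21, 3.29, 5.53 and 7.32 in supplemented tumours. Tumours numbered 5, which shared a slide, were highest in both diets, and the difference of 0.69 had a 95% interval from -0.86 to 2.24. Within the 4 slides the Mt1 difference ran from -0.02 to 2.42, above 0 on 3 of them. Over all slides it was 1.21 without control tumour 5, 0.09 without supplemented tumour 5 and 0.07 with normexp background correction. Mt2A differed by 0.56 (95% interval -0.81 to 1.94), or by -0.03 with normexp background correction, and was also highest in the tumours numbered 5.

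Mt1 is a known target of Mtf1 through metal response elements with the core TGCGCNC or TGCACNC. Its upstream stretch, from RefSeq (GRCr8), is shown because it carries 6 such cores, in capitals on either strand.
Mt1 (chr19:10833016-10833155, minus strand): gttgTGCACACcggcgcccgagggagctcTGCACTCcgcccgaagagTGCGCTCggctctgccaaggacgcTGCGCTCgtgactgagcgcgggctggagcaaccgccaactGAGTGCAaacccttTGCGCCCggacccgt
The core lay in the promoters of 10 of 17 zinc list members with a RefSeq promoter (58.8%), against 24.2% of all promoters and 35.9% of those of tested genes. The 10 members with the core had a median difference of -0.05 (4 higher, 6 lower) and the 7 without it 0.12 (6 higher, 1 lower). The exporter gene Slc30a1, which Mtf1 also regulates, differed by -0.02 (95% interval -0.35 to 0.32) and took both signs under alternative processing. The importer gene Slc39a4 differed by -0.46 (95% interval -0.96 to 0.04) and Mtf1 itself by -0.35 (95% interval -1.63 to 0.92), and with normexp background correction they stood at 0.12 and 0.17.

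Of 13 tested genes for the Ah receptor and carcinogen metabolism, the pathway that activates and clears DMBA, 4 were higher and 9 lower (median -0.18). The glutathione transferase genes Gstm2, at -0.58 (95% interval -1.16 to -0.01), and Gstt1, at -0.39 (95% interval -0.78 to -0.01), had an unadjusted p under 0.05 and overlapping groups, and stood at 0.04 and -0.03 with normexp background correction. Cholesterol and fatty acid synthesis genes were mostly lower (15 of 19, median -0.28) with 0 at an unadjusted p under 0.05, and the median was -0.10 without control tumour 3. TGF-beta and BMP signalling genes had a median of 0.22 (13 higher, 7 lower of 20), which was 0.10 without control tumour 5 and -0.06 with normexp correction. Adipocyte genes had a median of 0.19 (7 of 9 higher), with the list mean of supplemented tumour 5 at 1.08 and of all other supplemented tumours between -0.23 and -0.04. Endothelial genes had a median of -0.14 (4 of 6 lower), or 0.27 with normexp background correction.

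The remaining lists lay near 0, with medians within 0.10 of it for 20 of 42 lists. Besides those described, they were glycolysis and hypoxia (0.00), growth factors and the IGF axis (-0.10), complement (0.04), antioxidant defence (0.08), immediate early genes (-0.01), apoptosis regulators (0.02), epithelial junctions (-0.06), interferon response (-0.07), p53 targets (-0.05), DNA repair (0.00), skeletal muscle (0.08) and carbonic anhydrases (-0.06). Of the 1024 list entries 889 had a probe and 732 were tested, and 11 lists held a gene with an unadjusted p under 0.05.

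One of the dimmer genes named for a small p was Car15, a membrane-bound carbonic anhydrase and so a zinc enzyme. Car15 read -0.26, 2.17, -0.35, -0.92 and 1.31 in control and -2.10, -3.98, -0.67, -1.71 and -3.81 in supplemented tumours. Its probe was well above background in 5 of 5 control but 1 of 5 supplemented tumours, supplemented tumour 3 lay within the control range, and the size of its difference, -2.84, rests mostly on signals near background. It was -0.69 with normexp background correction and -1.15 in the authors' deposited values. Pknox1, a homeobox transcription factor gene, was above control in every supplemented tumour, with values from -2.29 to -1.72 in control and from -1.57 to -1.22 in supplemented tumours and a difference of 0.58 (95% interval 0.26 to 0.90). Klhdc9 was below control in every supplemented tumour, from -0.35 to 0.45 against -1.06 to -0.53, with a difference of -0.71 (95% interval -1.14 to -0.29).

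The other dim genes named by their p were Nptx1, a neuronal pentraxin gene (1.09), Otud7b, a deubiquitinase gene (0.83), Cfap141 (0.57) and Ptp4a1, a phosphatase gene (0.53), which were higher. A second probe of Otud7b had the opposite sign. Phykpl, an enzyme of hydroxylysine breakdown (-1.25), Guca2a, the guanylin gene (-1.08), and Pou6f1, a POU transcription factor gene (-0.90), had lower measured signals. They stood well above background in 1, 1 and 2 of the 5 supplemented tumours, so the sizes of these differences are not settled, and all 3 took the opposite sign with normexp background correction. The median of all tested probes was 0.04 with that correction.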

How the data were processed

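Total RNA of 15 tumours was hybridised to 1-colour Agilent rat arrays, 1 array per tumour, per the labels' protocols. Spot intensities were extracted with Agilent Feature Extraction, version 11.5.1.1 per the file headers and 15.5 per the submitters' processing notes, and the deposited processed intensity is background-corrected per the file headers. A further table deposited by the authors holds log2 values of 30002 probes, whose normalization is not given in the sources used here; it served as an alternative. Here log2 of the processed signal was taken minus the 75th percentile of each array's non-control spots, spots of a probe were averaged, and 21011 probes were kept that passed the scanner's background flag on 5 or more of the 15 arrays. limma 3.58.1 (R 4.3.3) was fitted to all 15 arrays (12 residual degrees of freedom), with Benjamini-Hochberg adjustment over all probes; the script was tested on simulated data. The number of arrays limits the precision.

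Probes were named through RefSeq accessions (10710 of the tested probes, 8378 genes). Named genes were the 20 with the highest level; of bright genes, the 12 with the smallest p in each direction; of other genes, the 6 in each direction; of each list, the 3 with the highest level and the 2 with the smallest p; a short fixed list; and the 5 bright genes with the largest SD. Not all are printed, and a few list members were named after their values were seen. The comparison, the members and the 42 lists were chosen with earlier results of these data known. Alternatives covered background correction, scaling, filters, blocks, array weights and leaving out each tumour. Normexp used the median signal and an offset of 50; normexp with quantile normalization was chosen after seeing the data. A free-text label speaks of mammary gland at postnatal day 21, while the sample characteristics, used here, give tumours at 180 days.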

Additional observations from a re-analysis of the deposited data

Results flagged for a closer look

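Among 172 gene groups of 5 tumours and 84 list groups, 3 and 6 held a tumour far from the other 4 by Dixon's test, where chance gives about 5%, or 1 in 20. Control tumour 3 stood at 0.85 for Ccnb1 with the next at -0.51. Supplemented tumour 4 stood at 2.70 for Dnajc3 with the next at 2.25, and supplemented tumour 1 at -1.38 for Nptx1 with the next at -0.33. By list mean, control tumour 4 stood at 3.08 for luminal genes and control tumour 2 at -0.64 for endothelial genes. Supplemented tumour 4 stood at 0.98 for S phase genes and at -2.09 for mast cell genes, supplemented tumour 3 at 0.67 for interferon response genes and supplemented tumour 5 at 1.08 for adipocyte genes.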

How the results depend on the processing

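No probe was called by limma under any of the 25 alternatives that tested all probes, where the lowest adjusted p was 0.330. With normexp, 3025 probes had an unadjusted p under 0.05, 1434 of them bright, and 362 did not overlap. The median was 0.044 over all probes and -0.44 over bright probes. Chordc1 then stood at -0.024, Dnaja1 at -0.077, Hspa8 at -0.22, Erbb2 at -0.18, Mt2A at -0.034, Pou6f1 at 0.082, Phykpl at 0.25, Guca2a at 0.19, Fam83d at 0.18 and Slc30a1 at 0.042. The cause was not tested. Normexp with quantile normalization gave 186 bright probes, a median of 0.0050 and Slc30a1 at 0.052; the deposited values gave 176, 0.0018 and 0.057. The median was 0.014 with quantile normalization and -0.020 with the percentile taken over probes above background on all arrays. Without the filter on dim probes 125 probes did not overlap and 62 bright probes passed an unadjusted p of 0.05. With probes above background on all arrays, fewer probes were tested and 242 passed, 45 did not overlap and the median was 0.014. With only the 2 diets fitted 623 passed, and with array weights 824, of which 192 were bright.

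Leaving out 1 tumour gave 354 (supplemented 5) to 713 (control 1) probes at an unadjusted p under 0.05, and 661 without supplemented tumour 4. It gave 75 to 180 bright probes, 146 to 323 without overlap (fewer tumours overlap less readily), medians of -0.017 to 0.0054, and Slc30a1 from -0.066 to 0.051. The replicate block gave 438 probes at an unadjusted p under 0.05 and 0 called. Tumours of the same number did not pair: their deviations correlated at -0.11 to 0.22, and only supplemented tumour 5 correlated best with its own number.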
